A study of Mus musculus with 8 samples.

Results

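The 8 SMAD genes of the mouse, *Smad1*, *Smad2*, *Smad3*, *Smad4*, *Smad5*, *Smad6*, *Smad7* and *Smad9*, were followed in pancreatic ductal adenocarcinoma (PDAC) cells in which *Smad4* can be switched. The members were taken by gene name from a table of 53465 genes. All 8 were found, and all 8 were among the 14301 genes kept by the filter on low counts and tested. RNA sequencing covered 2 cell lines derived from primary pancreatic tumors of KC-shSmad4 mice, B73 and B87. The animals carried Ptf1a-Cre, which recombines in the pancreatic epithelium, a Rosa26 LSL-rtTA3-IRES-mKate2 allele and a *Col1a1* homing cassette. That cassette holds a doxycycline (Dox)-inducible, GFP-linked, miR30-based short hairpin RNA against *Smad4*, and which of the study's hairpins each line carries was not given in the sources used here. Cells kept on Dox are called Smad4 off (DoxOn in the labels), and cells without Dox for 5 days are called Smad4 on (DoxOff). Both were then treated for 24 h with 100 pM recombinant mouse TGFβ1 or with 2.5 µM SB505124, an inhibitor of the kinase of the TGFβ type I receptors. The 4 groups of 2 libraries hold 1 library of each line, with totals between 18389235 and 23440550 counts. Dox itself differs with the *Smad4* state, no untreated or hairpin control was analysed here, and so the effects of Dox and of *Smad4* cannot be told apart. Each line stands for 1 tumor, and nothing states that the libraries of a line came from separate cultures, so the p-values measure only the spread between these libraries.

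SMAD proteins carry signals of the TGFβ superfamily from the membrane to the nucleus. Receptors for TGFβ and activin phosphorylate SMAD2 and SMAD3, receptors for bone morphogenetic proteins (BMPs) phosphorylate SMAD1, SMAD5 and SMAD9, and either kind binds the common partner SMAD4 to act on transcription. SMAD6 and SMAD7 are inhibitory members that act back on the pathway: SMAD6 mainly on BMP signals and SMAD7 on TGFβ and BMP receptors. *SMAD4* is among the genes most often lost in human PDAC. The measurements below are of mRNA, so they carry no information on phosphorylation or on protein.

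The family separated into mRNAs that hardly varied and mRNAs that varied strongly. Levels are given as CPM, the counts of a gene relative to a common library total after scaling of the libraries. Over the 8 libraries the highest CPM exceeded the lowest by 1.26 times for *Smad3*, 1.32 times for *Smad1*, 1.36 times for *Smad2* and 1.50 times for *Smad5*. The same quotient was 3.47 for *Smad4*, 6.99 for *Smad6*, 8.73 for *Smad7* and 153 for *Smad9*. The plot of CPM by library shows the contrast between these sets.

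**Figure D1:**
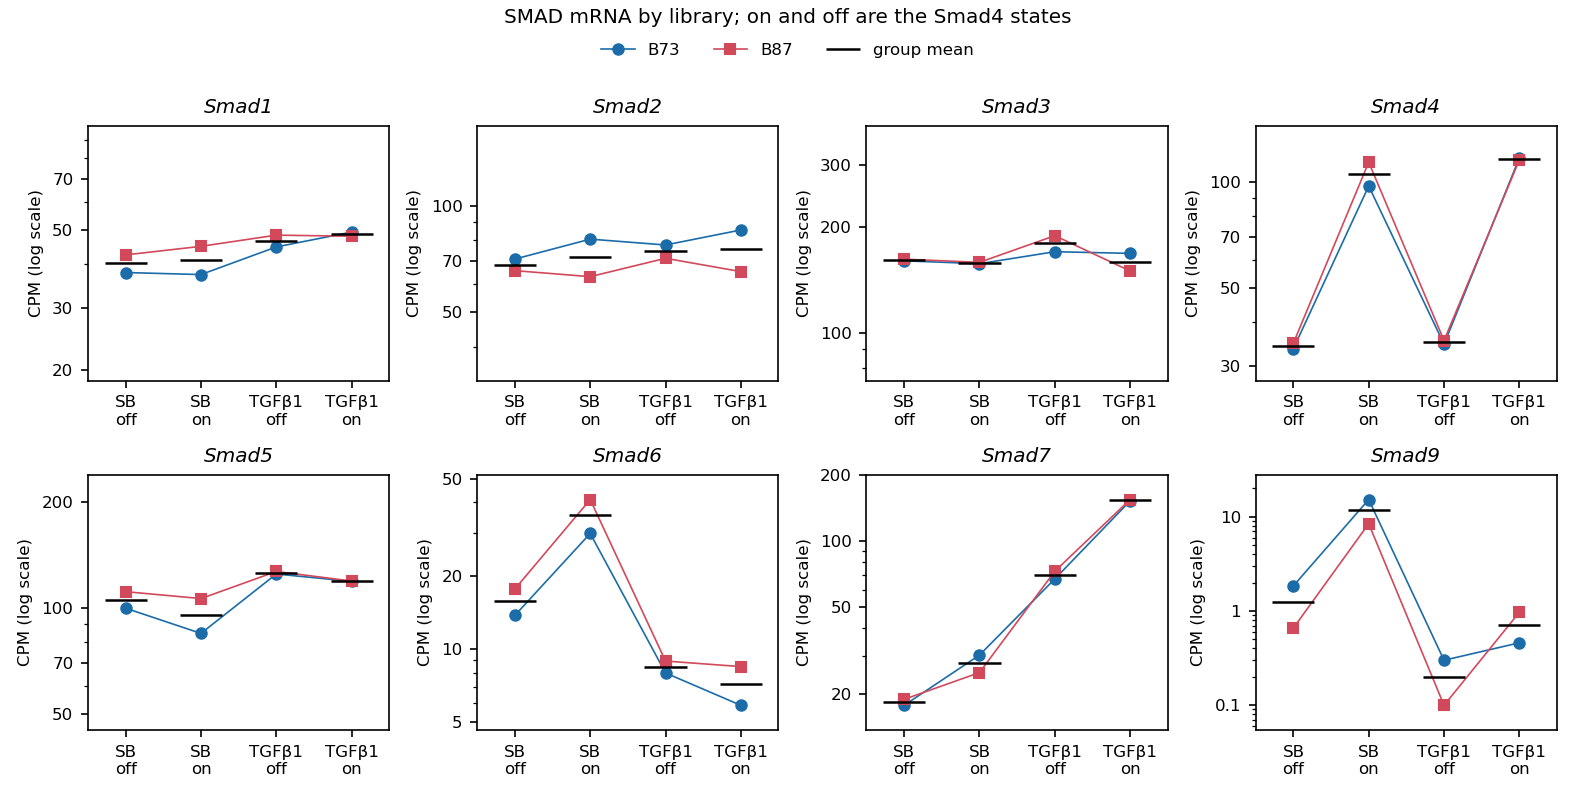
CPM (log axis) of each SMAD mRNA in the 8 libraries, with circles for line B73, squares for line B87 and black bars for the mean of the 2 libraries of a group; SB stands for SB505124, and off and on for the *Smad4* state. *Smad7* climbed to 153 and 155 CPM in the Smad4-on TGFβ1 libraries, while *Smad6* and *Smad9* were highest in the Smad4-on SB505124 libraries.

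*Smad4*, the gene the hairpin targets, is considered first because it checks the labels (ENSMUSG00000024515, GRCm38 chr18:73639009-73703780, - strand). In Smad4-off cells under SB505124, B73 held 33.7 CPM of *Smad4* and B87 34.9 CPM, and under TGFβ1 the levels were 34.7 and 35.5 CPM. In Smad4-on cells it was 97.4 and 114 CPM under SB505124 and 117 and 116 CPM under TGFβ1. Every library labelled Smad4 on was therefore well above every library labelled Smad4 off, and *Smad4* mRNA was reduced, not absent, on Dox. The difference was 3.08-fold under SB505124 (log2 fold change 1.62, SE 0.09, adjusted p = 0.00235, edgeR quasi-likelihood test) and 3.31-fold under TGFβ1 (log2 fold change 1.73, SE 0.09, adjusted p = 0.00084). TGFβ1 itself was not seen to move *Smad4*: against SB505124 the log2 fold change was 0.14 (95% interval -0.07 to 0.35) in Smad4-on cells and 0.03 (-0.19 to 0.25) in Smad4-off cells. As the hairpin was directed at this gene, its response to Dox is no finding about the family.

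Different members passed the test for *Smad4* under the 2 treatments, and the difference between the treatments is tested with *Smad6* below. Under TGFβ1, 2 of the 8 members passed at an adjusted p under 0.05, *Smad4* and *Smad7*, both higher in Smad4-on cells, where 6.8% of all tested genes passed. Under SB505124, 3 of the 8 passed, *Smad4*, *Smad6* and *Smad9*, all higher in Smad4-on cells, against 1.59% of all tested genes. All 5 of these changes exceeded 2-fold, the further threshold the study used. The median log2 fold change over the 8 members was 0.04 under TGFβ1 and 0.33 under SB505124, beside medians of -0.01 and 0.00 over all tested genes. These counts and medians include *Smad4*, the target of the hairpin, whose rise without Dox was set by the design. Under SB505124, *Smad1*, *Smad2*, *Smad3* and *Smad5* lay between -0.15 and 0.07, so the median there is no shift of the whole family. The 2 comparisons share no library. In bulk libraries, fewer cells expressing a gene and less of its RNA per cell cannot be told apart.

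The comparison of TGFβ1 with SB505124 was made within each *Smad4* state. In Smad4-on cells, 4 of the 8 passed, *Smad5* and *Smad7* higher and *Smad6* and *Smad9* lower under TGFβ1, and 3 of them, all but *Smad5*, changed by more than 2-fold. Of all tested genes, 33.2% passed in this comparison. In Smad4-off cells, 2 of the 8 passed, *Smad7* higher and *Smad6* lower, of which *Smad7* exceeded 2-fold, against 13.2% of all tested genes. The median log2 fold change over the members was 0.10 with *Smad4* on and 0.14 with it off, beside -0.02 in both states over all tested genes. SB505124 blocks the TGFβ type I receptors, so these comparisons set added ligand against a blocked TGFβ receptor and not against untreated cells. Rises and falls with TGFβ1 below are relative to SB505124, and which of the 2 agents moved a gene was not tested.

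**Figure D2:**
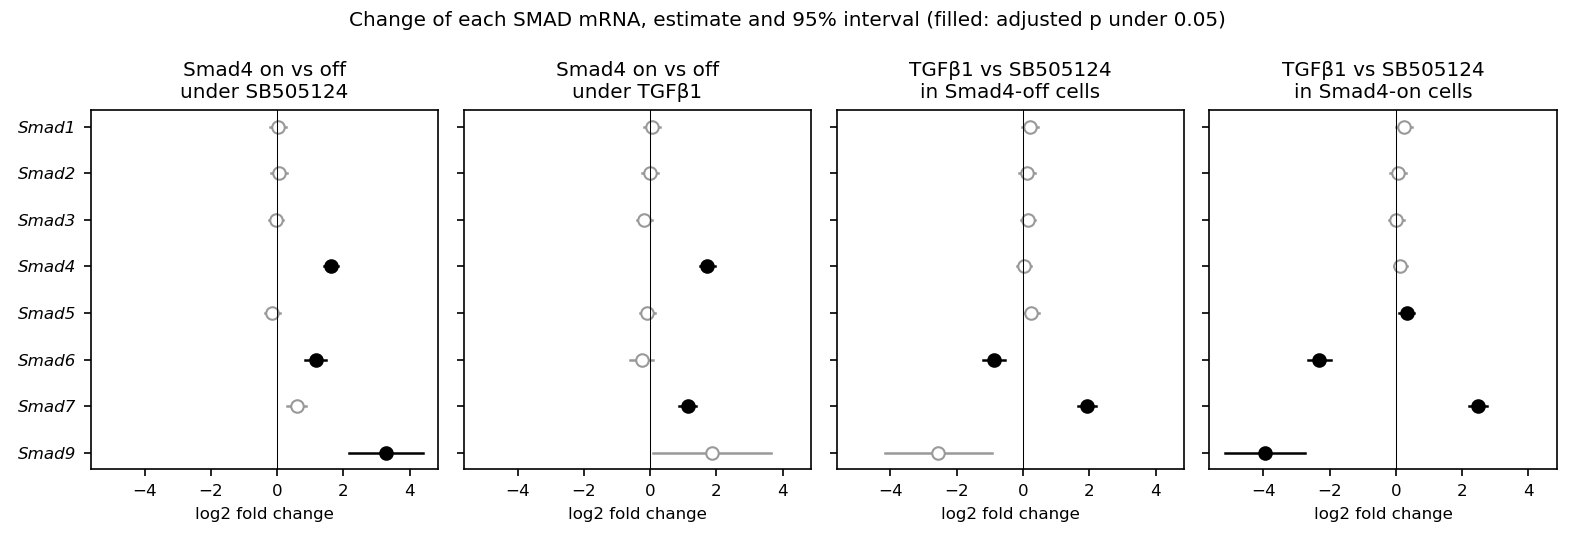
Log2 fold change of each SMAD mRNA in the 4 comparisons, with 95% intervals as lines; filled black points passed at an adjusted p under 0.05 and open grey points did not. *Smad6* and *Smad9* lie to the right of 0 for *Smad4* on against off under SB505124 and to the left of 0 for TGFβ1 against SB505124, and *Smad7* lies to the right of 0 in all 4 panels, though under SB505124 its adjusted p was 0.074.

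*Smad7*, the inhibitor of TGFβ signalling, was highest where *Smad4* and TGFβ1 were both present (ENSMUSG00000025880, chr18:75367529-75395935, + strand). Under SB505124 it stood at 17.8 CPM in B73 and 18.9 CPM in B87 in Smad4-off cells and at 30.1 and 25.1 CPM in Smad4-on cells. Under TGFβ1 it stood at 67.2 and 72.9 CPM in Smad4-off cells and at 153 and 155 CPM in Smad4-on cells. The order of the 4 groups was the same in both lines, and no groups overlapped. TGFβ1 raised *Smad7* 5.59-fold in Smad4-on cells (log2 fold change 2.48, SE 0.12, adjusted p = 5.48e-05) and 3.81-fold in Smad4-off cells (1.93, SE 0.12, adjusted p = 0.000467). *Smad7* thus rose under TGFβ1 also where *Smad4* mRNA was held down by the hairpin. Switching *Smad4* on raised it 2.20-fold under TGFβ1 (1.14, SE 0.11, adjusted p = 0.00317). Under SB505124 the corresponding value was 1.50-fold (0.59, SE 0.12), which missed the threshold at an adjusted p of 0.074. The test of the difference between these 2 effects gave a log2 value of 0.55 (95% interval 0.18 to 0.93), with an adjusted p of 0.285 in edgeR over all tested genes, so a larger effect of *Smad4* under TGFβ1 was not shown.

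*Smad6*, the inhibitor directed mainly at BMP signals, moved against *Smad7* when the treatment changed (ENSMUSG00000036867, chr9:63953076-64022059, - strand). In Smad4-off cells under SB505124, B73 held 13.7 CPM and B87 17.6 CPM, and the Smad4-on cells held 29.8 and 41.0 CPM. Under TGFβ1 it was 7.97 and 8.92 CPM in Smad4-off cells, and 5.87 and 8.46 CPM in Smad4-on cells. The SB505124 libraries were all above the TGFβ1 libraries, the 2 *Smad4* states did not overlap under SB505124, and under TGFβ1 they overlapped. Switching *Smad4* on under SB505124 raised *Smad6* 2.25-fold (log2 fold change 1.17, SE 0.13, adjusted p = 0.0122). Relative to SB505124, *Smad6* was lower under TGFβ1 by 4.94-fold in Smad4-on cells (-2.31, SE 0.14, adjusted p = 0.000114) and by 1.84-fold in Smad4-off cells (-0.88, SE 0.14, adjusted p = 0.00927). Under TGFβ1 the *Smad4* effect was -0.26 (95% interval -0.60 to 0.09, adjusted p = 0.333).

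The estimates of the *Smad4* effect on *Smad6* had opposite signs under the 2 treatments, though a fall under TGFβ1 was not shown. The effect was 1.11 in B73 and 1.22 in B87 on the log2 scale under SB505124, and -0.43 and -0.07 under TGFβ1. The difference between the effects was -1.43 (SE 0.20, 95% interval -1.89 to -0.96), with an adjusted p of 0.0743 in edgeR over all tested genes. By this test 0 of the 8 members passed for a difference of the *Smad4* effect between treatments, against 0.196% of all tested genes. At an unadjusted p under 0.05, 2 members passed, *Smad6* and *Smad7*, and DESeq2 with the line as a term called 1, *Smad6* (adjusted p = 0.000122).

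*Smad9*, a receptor-activated member of the BMP branch, was the scarcest and the most variable of the family (ENSMUSG00000027796, chr3:54755582-54801257, + strand). Under SB505124 it had 37 counts in B73 and 15 in B87 in Smad4-off cells, which is 1.85 and 0.659 CPM, and 282 and 203 counts in Smad4-on cells, which is 15.2 and 8.44 CPM. Under TGFβ1 it had 7 and 2 counts in Smad4-off cells, or 0.300 and 0.0996 CPM, and 9 and 19 counts in Smad4-on cells, or 0.459 and 0.969 CPM. Only the Smad4-on SB505124 libraries thus held *Smad9* at more than 2 CPM, and the lowest library, at 2 counts, was below the 3 counts (0.125 to 0.162 CPM) taken as the floor of detection. Switching *Smad4* on under SB505124 raised *Smad9* 9.66-fold (log2 fold change 3.27, SE 0.47, adjusted p = 0.0245). TGFβ1 lowered it 15.4-fold in Smad4-on cells (-3.94, SE 0.51, adjusted p = 0.00172), a value that was -2.996 without the Smad4-on TGFβ1 library of B73 and -5.16 without that of B87, and that passed in both cases. In Smad4-off cells the corresponding log2 fold change was -2.55 (95% interval -4.18 to -0.92, adjusted p = 0.055), and the *Smad4* effect under TGFβ1 was 1.88 (0.10 to 3.65, adjusted p = 0.191). These last 2 values rest on 2 to 37 counts a library. The first passed in 6 of 15 alternatives, and the second was 0.73 without the Smad4-on TGFβ1 library of B87 and 2.89 without that of B73.

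The rises of *Smad6* and *Smad9* with *Smad4* under SB505124 had the same sign in both lines, but several alternatives ended the calls. Without the line as a term (no replicate block) the edgeR adjusted p was 0.451 for *Smad6* and 0.467 for *Smad9*, whereas DESeq2 without the line gave 0.0114 and 0.00312. Leaving out any of the 4 SB505124 libraries took both above 0.05, to adjusted p-values of 0.0689 to 0.0859 for *Smad6* and 0.0749 to 0.215 for *Smad9*, with log2 fold changes of 1.12 to 1.22 and 2.86 to 3.89. The fall of *Smad6* with TGFβ1 in Smad4-off cells also lost its call without the line (adjusted p = 0.159), without the Smad4-off SB505124 library of B87 (0.0536) and without the Smad4-off TGFβ1 library of B87 (0.111).

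As both were highest in the same libraries, the promoters of *Smad6* and *Smad9* are shown to let their sequences be compared (RefSeq, GRCm38.p6). The RefSeq promoter windows, of 300 bases each, matched 5 of the 8 members, *Smad1*, *Smad3*, *Smad5*, *Smad6* and *Smad9*, with 3 windows for *Smad5*. They were searched on both strands for 3 motifs known to be bound by SMAD proteins: GTCTAGAC, the palindromic SMAD-binding element; CAGAC, the shorter box; and GGCGCC, a GC-rich motif. None of the 3 contains another. The 260 bases of *Smad6* (chr9:64022050-64022309, - strand) run from 250 bases before the start of transcription to 10 bases after it and the 250 bases of *Smad9* (chr3:54755332-54755581, + strand) end just before the start. Capitals mark the motif found in each.
Smad6: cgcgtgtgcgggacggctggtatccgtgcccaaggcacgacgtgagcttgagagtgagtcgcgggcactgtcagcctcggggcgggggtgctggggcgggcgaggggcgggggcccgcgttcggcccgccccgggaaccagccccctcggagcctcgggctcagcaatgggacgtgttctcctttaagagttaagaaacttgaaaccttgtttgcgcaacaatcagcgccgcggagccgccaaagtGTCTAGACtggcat
Smad9: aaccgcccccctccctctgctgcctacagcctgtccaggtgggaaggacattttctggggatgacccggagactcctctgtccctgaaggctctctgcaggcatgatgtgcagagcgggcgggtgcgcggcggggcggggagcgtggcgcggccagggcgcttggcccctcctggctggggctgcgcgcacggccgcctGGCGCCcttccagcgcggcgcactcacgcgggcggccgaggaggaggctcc

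The *Smad6* window held GTCTAGAC 4 bases before the start, so that the palindrome spans it, and the *Smad9* window held GGCGCC 51 bases before the start. *Smad6* was alone among the 5 members in holding GTCTAGAC. GGCGCC was also in 2 of the 3 *Smad5* windows, which overlap and hold the same single match. CAGAC was in the remaining *Smad5* window, and the windows of *Smad1* and *Smad3* held none of the 3 motifs. Of all 32851 promoter windows, 0.213% held GTCTAGAC, 11.9% held GGCGCC and 49.6% held CAGAC. A match describes letters in a window and is not a measured site.

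The levels of *Smad6*, *Smad7* and *Smad9* were set beside those of 4 well-known responders. *Id1* and *Id3*, targets of BMP signals that encode inhibitors of helix-loop-helix factors, were highest in the same Smad4-on SB505124 libraries as *Smad6* and *Smad9*. *Id1* stood at 56.8 and 50.6 CPM in Smad4-off and at 149 and 117 CPM in Smad4-on cells under SB505124, and at 29.4 and 22.4 CPM and then 31.6 and 41.2 CPM under TGFβ1, with B73 before B87 throughout. With *Smad4* on under SB505124, *Id1* rose 2.47-fold (adjusted p = 0.0213) and *Id3* rose 2.62-fold (adjusted p = 0.00341). In Smad4-on cells TGFβ1 lowered *Id1* 3.61-fold (adjusted p = 0.000605) and *Id3* 5.09-fold (adjusted p = 5.48e-05), with falls of 2.08-fold and 2.76-fold in Smad4-off cells (adjusted p = 0.0133 and 0.000784). Under TGFβ1 the *Smad4* effect had a log2 value of 0.50 for *Id3* (adjusted p = 0.0422) and 0.51 for *Id1* (adjusted p = 0.162), and of -0.26 for *Smad6* as given above. For *Id1* the rise under SB505124 passed in 11 of 16 alternatives and the fall in Smad4-off cells in 12, and for *Id3* the value under TGFβ1 passed in 9.

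*Skil*, which encodes the SMAD co-repressor SnoN, and *Pmepa1*, which encodes a membrane protein that sequesters receptor-activated SMADs, are targets of TGFβ signals. Like *Smad7*, both rose under TGFβ1 in both *Smad4* states. In Smad4-off cells *Skil* rose 3.32-fold (adjusted p = 0.000231) and *Pmepa1* 12.2-fold (adjusted p = 0.000662), beside the 3.81-fold of *Smad7*. Switching *Smad4* on under TGFβ1 raised *Skil* 1.48-fold (adjusted p = 0.0121), beside the 2.20-fold of *Smad7*. For *Pmepa1* the log2 value was 0.44 (adjusted p = 0.293).

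**Figure D3:**
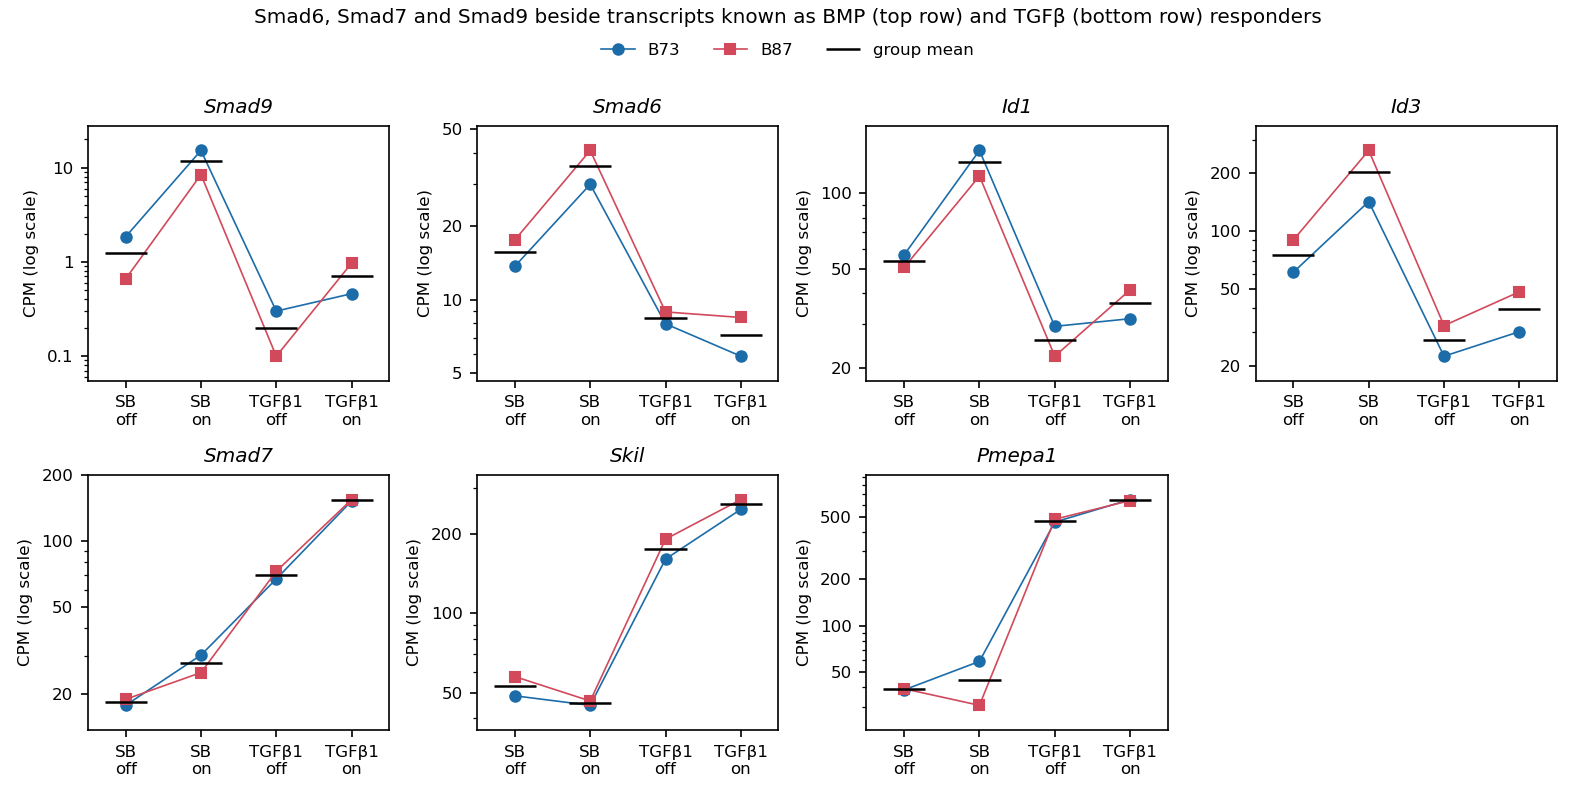
CPM (log axis) of *Smad9*, *Smad6*, *Id1* and *Id3* (top) and of *Smad7*, *Skil* and *Pmepa1* (bottom) in the 8 libraries, with circles for B73, squares for B87 and black bars for group means; off and on are the *Smad4* states and SB is SB505124. The top row peaks in the Smad4-on SB505124 libraries, where *Id1* reached 149 and 117 CPM, and the bottom row peaks in the Smad4-on TGFβ1 libraries, where *Smad7* reached 153 and 155 CPM.

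A search of all tested genes with a mean log2 CPM of at least 1 gave the genes whose log2 CPM followed each member most closely, of which up to 3 are named, over the 8 libraries. For *Smad9* these were *Id1* (Pearson r = 0.99), *Lamtor1* (0.98) and *Mlycd* (0.97), and for *Smad6* they were *Cst3* (0.99), *C87436* (0.98) and *Rab3b* (0.98). For *Smad7* they were *Iffo2*, *Plin2* and *Actb*, at 0.9949 to 0.9955, and for *Smad4* they were *Mboat7*, *Clta* and *Dnah14* at 0.97 each. For *Smad1* the closest were *Extl3*, *Ccdc114* and *Pogk* (0.98 each), for *Smad2* *Ddx49* and *Hsbp1* (0.98 and 0.97), for *Smad3* *Lrrc27*, *Csf1* and *Zfp748* (0.89 to 0.95) and for *Smad5* *3110082I17Rik*, *Ubtd2* and *Usp42* (0.97 each). Among the members themselves *Smad6* followed *Smad9* (0.847) and *Smad1* followed *Smad5* (0.865), while *Smad5* and *Smad9* ran in opposite directions (-0.885). With n = 8 libraries that share 4 conditions and 2 lines, and the best of 11099 or 11100 genes taken each time, these values are descriptions.

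The receptor-activated members other than *Smad9* were close to constant. For *Smad2* (ENSMUSG00000024563, chr18:76241580-76305731, + strand) the 8 libraries lay between 63.1 and 85.6 CPM with a median of 71.0 CPM, and for *Smad3* (ENSMUSG00000032402, chr9:63646767-63757994, - strand) between 150 and 189 CPM with a median of 161 CPM. Both carry the TGFβ and activin signal. For *Smad1* (ENSMUSG00000031681, chr8:79338395-79399518, - strand) the range was 37.4 to 49.4 CPM and the median 44.9 CPM, and for *Smad5* (ENSMUSG00000021540, chr13:56703010-56742377, + strand) it was 84.8 to 127 CPM with a median of 115 CPM. These are carriers of the BMP signal. For *Smad5* the TGFβ1 libraries all lay above the SB505124 libraries, and for *Smad1*, *Smad2* and *Smad3* the treatments overlapped.

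Switching *Smad4* on left *Smad1*, *Smad2*, *Smad3* and *Smad5* without a call under either treatment. Their log2 fold changes ran from -0.15 (*Smad5*) to 0.07 (*Smad2*) under SB505124 and from -0.17 (*Smad3*) to 0.07 (*Smad1*) under TGFβ1. The 95% intervals bound what could have been missed. Those that reached furthest from 0 were -0.39 to 0.05 for *Smad3* under TGFβ1 and -0.38 to 0.09 for *Smad5* under SB505124, so changes of 2-fold in either direction lay outside all 8 intervals.

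With TGFβ1 against SB505124, *Smad5* rose 1.25-fold in Smad4-on cells, the smallest change among the members that passed (log2 fold change 0.32, SE 0.10, adjusted p = 0.0439). Its level there went from 84.8 and 106 CPM to 119 and 119 CPM. In Smad4-off cells it went from 100 and 111 CPM to 125 and 127 CPM, a log2 fold change of 0.26 (95% interval 0.02 to 0.49) with an adjusted p of 0.142. The call in Smad4-on cells was lost without the line as a term (no replicate block) in edgeR or DESeq2 (adjusted p = 0.142 and 0.0898), with only the 4 libraries compared (0.0584) and when 7 of the 8 libraries were left out in turn. With library totals in place of scaling factors it was also lost (log2 fold change 0.19, adjusted p = 0.188), as that scaling shifts all genes by -0.13 in this comparison. For *Smad1* the log2 fold change was 0.25 (95% interval 0.00 to 0.49, adjusted p = 0.111) in Smad4-on and 0.21 (-0.03 to 0.46, adjusted p = 0.229) in Smad4-off cells, and *Smad2* and *Smad3* gave values between 0.01 and 0.16.

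To compare levels between genes, CPM were divided by the gene length in the deposited table. On this scale of CPM per kilobase, *Smad3* led the family in Smad4-off cells under SB505124 with 29.1 ± 0.217 (SD, n = 2), ahead of *Smad2* with 19.2 ± 1.03, *Smad4* with 9.24 ± 0.234 and *Smad1* with 6.42 ± 0.523. *Smad5* lay between *Smad2* and *Smad4*, and *Smad6* (4.89 ± 0.858), *Smad7* (4.06 ± 0.181) and *Smad9* (0.233 ± 0.157) followed. In Smad4-on cells under TGFβ1 the order was led by *Smad7* with 34.1 ± 0.344, then *Smad4* with 31.3 ± 0.286, *Smad3* with 28.8 ± 2.34 and *Smad2* with 21.3 ± 4.06, and ended with *Smad6* (2.24 ± 0.572) and *Smad9* (0.133 ± 0.0671). The inhibitor *Smad7* thus moved from the seventh place to the first. In Smad4-on cells under SB505124 the libraries of *Smad3* and *Smad4* overlapped, as did those of *Smad5* and *Smad6* and those of *Smad1* and *Smad7*, so the order within these pairs is not resolved. In Smad4-off cells under TGFβ1 the order was *Smad3*, *Smad2*, *Smad5*, *Smad7*, *Smad4*, *Smad1*, *Smad6* and *Smad9*, and no neighbours overlapped.

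The place of *Smad2* rests on its annotation. The deposited table gives it a length of 3549 bases and an end at 76305731, whereas the exons of GENCODE M21 sum to 8781 bases and reach 76310963, so reads in the distal part would not have been counted. For the other 7 members the deposited length equalled the GENCODE M21 exon length. Levels of *Smad2* relative to other genes are therefore tied to the shorter gene model, while its changes between libraries are not affected by the length. No stretch of 75 bases of 7 members occurred in transcripts of other genes, and for *Smad5* 0.344% of its stretches were shared with *Gm27301*, a small RNA gene within it.

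Summed over the family, with the hairpin target *Smad4* included, SMAD mRNA was higher with *Smad4* on and with TGFβ1. The sum per length was 86.1 to 88.8 CPM per kilobase in Smad4-off cells under SB505124, 114 to 119 in Smad4-on cells under SB505124, 103.4 to 107.5 in Smad4-off cells under TGFβ1 and 137.5 to 145.8 in Smad4-on cells under TGFβ1. *Smad2* and *Smad3* together made up 55.3% ± 2.14 (SD, n = 2) of it in the first of these groups and 35.3% ± 3.07 in the last. The inhibitory *Smad6* and *Smad7* together went from 10.2% ± 0.968 to 25.7% ± 1.70, and *Smad4* from 10.6% ± 0.0354 to 22.1% ± 0.714. The BMP-branch members *Smad1*, *Smad5* and *Smad9* went from 23.9% ± 1.14 to 16.9% ± 0.651, while their summed level went from 19.9 and 21.9 to 24.0 and 23.9 CPM per kilobase. Switched on, *Smad4* alone went from 9.24 to 28.45 CPM per kilobase under SB505124 and from 9.45 to 31.32 under TGFβ1. Much of the rise of the family sum with *Smad4* on was therefore the hairpin target itself, as set by the design.

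**Figure D4:**
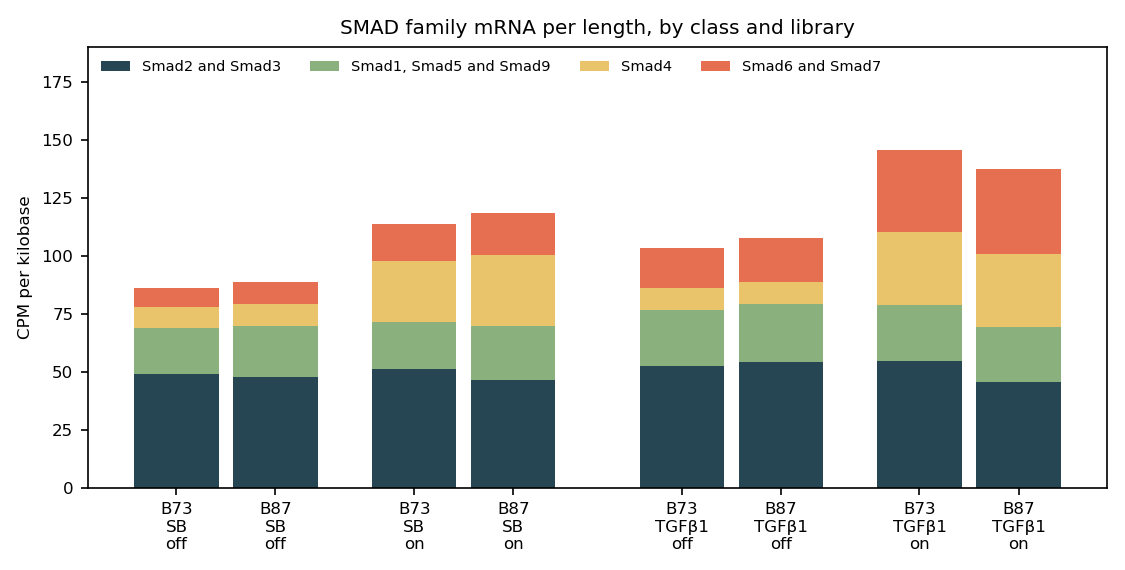
Stacked bars of CPM per kilobase for 4 classes of SMAD mRNA in the 8 libraries, from 0, with off and on for the *Smad4* state and SB for SB505124. The dark segment for *Smad2* and *Smad3* stays near the same height in all bars, and the top segment for *Smad6* and *Smad7* is tallest in the Smad4-on TGFβ1 libraries, where it was 25.7% of the sum on average.

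Ratios of members within a library do not depend on the scaling between libraries. The ratio of *Smad7* to *Smad6* per length was 0.918 and 0.762 in Smad4-off and 0.718 and 0.433 in Smad4-on cells under SB505124, with B73 before B87. Under TGFβ1 it was 5.98 and 5.79 in Smad4-off and 18.5 and 13.0 in Smad4-on cells. Per length, *Smad6* was thus the more abundant inhibitor in all 4 SB505124 libraries and *Smad7* in all 4 TGFβ1 libraries, a difference of 14.0-fold between treatments (exact permutation test, two-sided, 4 libraries against 4, p = 0.0286). The order under SB505124 depends on the division by length. In CPM, only the Smad4-on SB505124 library of B87 held more *Smad6* (41.0) than *Smad7* (25.1). The ratio of *Smad4* to *Smad2* and *Smad3* together lay between 0.177 and 0.197 in Smad4-off and between 0.513 and 0.684 in Smad4-on cells (3.29-fold, exact permutation p = 0.0286), and the corresponding value for the treatments was 1.00-fold (exact permutation p = 1).

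The lines differed in 2 further ratios. *Smad3* to *Smad2* was 1.19-fold higher in B87 (1.48 to 1.70 against 1.25 to 1.45 in B73, exact permutation p = 0.0286). The BMP-branch members to *Smad2* and *Smad3* were 1.14-fold higher in B87 (0.459 to 0.526 against 0.396 to 0.457, exact permutation p = 0.0286). In total 12 tests were made, of 4 ratios by 3 labelled splits. The 4 that separated completely reached the smallest p this design allows, 0.0286, and after Benjamini-Hochberg adjustment their value was 0.0857, so 0 of the 12 passed. Among these 4 was the ratio of the hairpin target *Smad4* between the *Smad4* states, which was set by the design. The second of the line differences lost its complete separation with any other gene length, or with none. The permutation moved all libraries freely, with neither the line nor the other factor as a block. As each line stands for 1 tumor, the p-values for the lines describe a separation of libraries and not of tumors.

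Between the lines themselves, 1 of the 8 members passed, *Smad6*, 1.30-fold higher in B87 (log2 fold change 0.38, SE 0.10, adjusted p = 0.0373), against 18.6% of all tested genes. Without any single library this call was lost, with adjusted p-values from 0.0559 to 0.154. *Smad2* was lower in B87 by a log2 value of 0.25 (95% interval -0.41 to -0.08, adjusted p = 0.0573). For a difference between the lines in the *Smad4* effect, 0 of the 8 members passed in edgeR, 0 at an unadjusted p under 0.05 and 0 in DESeq2, against 0.406% of all tested genes. For a difference in the TGFβ1 effect the corresponding counts of members were all 0, against 0% of all tested genes, where 1198 genes had an unadjusted p under 0.05. Only 2 residual degrees of freedom remained in these last comparisons, and the interval for *Smad9*, -0.45 to 3.20 on the log2 scale for the TGFβ1 effect, shows how little they could resolve.

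Genes that act around the SMADs were counted as well, to be read against the 33.2% (Smad4 on) and 13.2% (Smad4 off) of all tested genes that passed for TGFβ1 against SB505124 and the 6.8% and 1.59% that passed for *Smad4* under TGFβ1 and SB505124. Ligands, of which 10 of 13 listed were tested, gave 5 higher and 3 lower under TGFβ1 in Smad4-on cells and 4 higher and 1 lower in Smad4-off cells, with median log2 fold changes of 0.56 and 0.54 beside -0.02 over all tested genes. *Inhba*, which encodes the activin subunit βA, rose 14.7-fold in Smad4-on cells (adjusted p = 7.76e-05) and *Bmp4*, a BMP ligand, fell 5.34-fold (adjusted p = 0.0005). Switching *Smad4* on raised *Inhba* 4.15-fold under TGFβ1 (adjusted p = 0.00238), the only ligand to pass there. Of the receptors, 11 of 13 were tested, and 3 were higher and 3 lower under TGFβ1 in Smad4-on cells, with 2 higher and 0 lower in Smad4-off cells and medians of -0.06 and 0.06. *Acvr1*, a type I receptor that phosphorylates SMAD1 and SMAD5, rose 4.05-fold (adjusted p = 3.86e-05) and 2.60-fold (adjusted p = 0.000467) in these states, and *Bmpr2*, a BMP type II receptor, rose 2.44-fold (adjusted p = 0.000961) and 1.75-fold (adjusted p = 0.0144). With *Smad4* on under TGFβ1 *Acvr1* was the only receptor to pass (1.71-fold, adjusted p = 0.0038).

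Among regulators of SMAD activity, 24 of 25 were tested. Under TGFβ1, 9 were higher and 6 lower in Smad4-on cells and 8 higher and 2 lower in Smad4-off cells, with medians of 0.10 and 0.14. By adjusted p, *Skil* was first in Smad4-on cells (5.70-fold, adjusted p = 2.62e-05), ahead of *Tgif1*, a co-repressor (3.02-fold, adjusted p = 0.000109), and *Ldlrad4*, which like *Pmepa1* sequesters receptor-activated SMADs (5.20-fold, adjusted p = 0.000118), while *Pmepa1* had the larger fold change (14.7-fold, adjusted p = 0.000151). With *Smad4* on under TGFβ1, 4 regulators were higher and 1 lower, and those with the smallest adjusted p were *Skil*, *Ldlrad4* (1.86-fold, adjusted p = 0.0147) and *Ctdspl*, a phosphatase gene that fell 1.51-fold (adjusted p = 0.0215). Of 16 alternatives, *Skil* passed there in 12, *Ldlrad4* in 11 and *Ctdspl* in 11. Of the target readouts, 11 of 12 were tested, and 6 rose and 4 fell under TGFβ1 in Smad4-on cells, with 5 and 4 in Smad4-off cells. With *Smad4* on, 4 readouts rose under TGFβ1, and 3 rose and 1 fell under SB505124. Under SB505124 no regulator, receptor or ligand passed for *Smad4*, and the lowest adjusted p of the 3 lists were 0.104 (*Tgif1*), 0.33 (*Bmpr1a*) and 0.246 (*Bmp4*).

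The cells were checked against markers. *Krt8*, *Krt18* and *Krt19*, keratins of ductal epithelium, were present in all libraries with at least 2994 counts, while *Epcam* had 3 to 39 counts. Epithelial markers were lower in B87, with 5 of 6 passing, and their summed level ran from 1170 to 6183 CPM over the libraries. Of the listed fibroblast markers *Lum* had 0 counts and *Dcn* at most 3, and of the immune markers *Cd3e* had 0 and *Ptprc* at most 3. Other genes of these lists were present: *Col1a1* had 7 to 12305 counts, *Col3a1* 33 to 833, *Pdgfra* 12 to 154 and *Pdgfrb* 0 to 653. The immune markers *Cd14* and *Cd68* had 411 to 970 and 23 to 126 counts. Of the 7 fibroblast markers 5 were tested and 1, *Col1a1*, rose under TGFβ1 in each *Smad4* state and with *Smad4* on under each treatment, with sums of 5.84 to 161 CPM in Smad4-on cells under SB505124 and 10.6 to 668 CPM under TGFβ1. The 4 endothelial markers summed to 2.25 to 5.14 CPM in Smad4-off cells under SB505124 and 7.24 to 26.0 CPM under TGFβ1. *Kdr* had 7 to 506 counts and *Cdh5* 0 to 54, while *Pecam1* and *Tie1* had 5 or fewer. Of these 4, 2 were tested, and 2 passed as higher under TGFβ1 in Smad4-off cells, against 13.2% of all tested genes. In Smad4-on cells 1 passed as higher, against 33.2% of all tested genes. Immune markers summed to between 22.3 and 54.9 CPM. The part of these differences in the SMAD values was not tested.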

How the data were processed

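Poly(A) RNA of 8 libraries was sequenced as stranded libraries in single-end runs. Per the labels and the study's methods, the authors trimmed reads with Trimmomatic 0.36, aligned them to GRCm38 (mm10) with STAR 2.5.3a and counted them per gene with featureCounts 1.6.3. The deposited values are raw counts for 53465 Ensembl genes without pooling or normalization. The setting for strand is not given in the sources used here, so overlapping genes on opposite strands are uncertain; of the members this concerns *Smad4*, which has 1 overlapping pseudogene that shares no exon with it. A gene length in the same table was used as deposited.

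Counts were tested with edgeR 4.0.16 in R 4.3.3 (TMM scaling, filterByExpr, quasi-likelihood F-test) over all 14301 kept genes, in a model of group plus line, with Benjamini-Hochberg adjustment over all tested genes. The study used DESeq2 and names no covariate; the line was added since both lines received every condition. The deviations from the group means correlated between same-line libraries by 0.64 to 0.77 over all pairs of groups. Each SE was computed as |log2 fold change|/√F. Log2 CPM per line used a prior count of 2. Ratios were compared by exact permutation of the libraries, without a block for the line. The 95% intervals follow from these SEs and include the spread between libraries; the floor (3 counts, 0.125 to 0.162 CPM) covers counting error only, since PCR copies cannot be told apart. The members and gene lists were chosen with earlier results of these data known. All members were named, with at most 3 genes per list and comparison by smallest p, 4 responders, and up to 3 genes most like each member; some items that this rule takes are not reported here.

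Alternatives were DESeq2 1.42.0 (line included or not), edgeR lacking the line term, DESeq2 size factors, no filter, at least 10 counts in every library, only the 4 libraries compared, other gene lengths and leaving out each library. Library totals without scaling factors and GENCODE M21 exon lengths were added after seeing the data. The scripts were tested on simulated counts.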

Additional observations from a re-analysis of the deposited data

Results flagged for a closer look

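The effect of *Smad4* on *Smad6* was flagged because it ran in opposite directions under the 2 treatments in both lines, upward under SB505124 and downward under TGFβ1. The difference of the log2 effects was -1.43, with an adjusted p of 0.0743 in edgeR.

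The effect of *Smad4* on *Smad2* was flagged because it was upward in B73 under both treatments (0.19 under SB505124 and 0.14 under TGFβ1 on the log2 scale) and downward in B87 under both (-0.06 and -0.12). The difference between the lines was -0.26 with an adjusted p of 0.543 in edgeR (95% interval -0.53 to 0.02).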

How the results depend on the processing

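Of 121 counts of passing members or tests recomputed under an alternative, 104 stayed within 1.5 times the count reported, and no call changed its direction. Without the replicate block, edgeR passed 1 member in place of 3 for *Smad4* under SB505124, 3 in place of 4 for TGFβ1 in Smad4-on cells and 1 in place of 2 in Smad4-off cells, and the other counts of members in edgeR were equal with and without the block. For the difference of the *Smad4* effect between treatments, 1 member passed (*Smad6*) with no filter on low counts and with DESeq2 with the line, and for the lines DESeq2 passed 2 (*Smad2* and *Smad6*). Leaving out each library gave 2 members for *Smad4* under TGFβ1, 1 to 3 under SB505124, 3 to 4 for TGFβ1 in Smad4-on cells, 1 to 3 in Smad4-off cells, 0 for the differences of effects, and 0 to 1 between the lines. Over single members, 36 of 1067 recomputed values lost and 15 gained a call, and 56 changed sign where neither value passed. Over the other named pathway genes, 50 of 948 lost and 26 gained a call.

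*Smad4* and *Smad7* passed in all alternatives where they had passed. The *Smad7* value under SB505124 passed with no filter (adjusted p = 0.00406) and in DESeq2 with and without the line (0.00555 and 0.0133). The requirement of 10 counts in every library removed *Smad9*, which gave no value there. Counts over all genes depended far more on the settings: edgeR without the replicate block called 43 in place of 973 genes for *Smad4* under TGFβ1, 2 in place of 228 under SB505124, 2180 in place of 4751 and 270 in place of 1888 for TGFβ1, and 0 in place of 28 for the difference of effects, while DESeq2 with the line called 1477, 491, 4399, 2112 and 270, and edgeR without a filter 1887, 792, 5058, 2655 and 440. For these changes the cause was not tested. Library totals without scaling factors shifted all genes by -0.12 (*Smad4* under TGFβ1) and -0.13 (TGFβ1 in Smad4-on cells) on the log2 scale. With 2 libraries a group, changes of the size seen for *Smad5* are at the limit of what can be called, and *Smad9* under TGFβ1 is limited by its counts.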
